A study of Mus musculus with 6 samples.

Results

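Imprinted genes are expressed from 1 parental copy, and CTCF, a zinc finger protein that anchors chromatin loops and domain boundaries with cohesin, is known to act at several of them. The intervals described here are the CTCF ChIP-seq peaks whose midpoint falls in 8 ranges of the mouse genome around 10 imprinted genes: H19 and Igf2, Dlk1 and Meg3, Peg3, Grb10, Peg10, Mest, Gnas, and Igf2r. They number 177 of the 36923 intervals in both deposited lists. Of these, 85 of 19403 were listed in quiescent satellite cells (QSC) and 92 of 17520 in freshly isolated satellite cells (FISC). An interval was classed as shared when 1 bp or more of it lay in an interval of the opposite list, and otherwise as QSC-only or FISC-only. The ranges were set by position around the genes and use no measured value of the intervals.

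Satellite cells are muscle stem cells that express Pax7 and lie along the muscle fibres. Both groups came from C57BL/6 mice with the Pax7-nGFP genotype at postnatal day 38, and each has 2 CTCF ChIP libraries and 1 input library. FISC are cells after removal from muscle, a step that begins their activation. The labels do not say how the QSC group was kept quiescent or whether the libraries came from separate animals. The authors deposited 1 list of intervals per state with no height, score or read count, so the depth is unknown, no value has an error over replicates, and no test of the states was possible. Peak lists hold no expression values, so the cell type could not be checked against its markers. An interval listed in a state was called there, and one missing from a list was not called, though CTCF may still have been bound. The mice are of 1 inbred strain, so the lists cannot tell the maternal from the paternal copy.

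At the H19 and Igf2 locus, textbook work places CTCF on the unmethylated maternal copy of a control region between both genes, where it insulates Igf2 from enhancers beyond H19. On the paternal copy that region is methylated and CTCF does not bind it. CTCF is also known to bind at Meg3 and Grb10, while at Igf2r the silencing RNA Airn does the central work. Several of these genes matter in muscle: Igf2 is a growth factor of myogenic differentiation, Dlk1 is a membrane protein that affects muscle regeneration, and Peg3 marks muscle-resident progenitor cells.

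Coordinates are in mm9 and count from 1. Of the 10 genes, all lie in the RefSeq gene table, of assembly GRCm38.p6, on the chromosome that the range names. That table gives the order of genes but no mm9 position, so no interval below is assigned to a gene, promoter, exon or control region. The mm9 sequence under the intervals was not used here. What sequence can be shown is that of RefSeq promoters in GRCm38.p6, which reach from 250 bases before to 50 bases after a gene's start. Promoter windows were found for 8 of the 10 genes (18 windows), but not for H19 and Peg10, and for 25 of 34 neighbouring genes (37 windows). A short core of the CTCF motif was searched on both strands: CC, any 3 letters, AG, any 2 letters, GGC. It occurred in 2828 of all 32851 windows (8.61%), in 1 of the 18 windows and in 4 of the 37. A stricter core, CC, any 3 letters, then AGGGGGC, is contained in the first and occurred in 422 windows of all (1.28%), in 0 of the 18 and in 1 of the 37. So few windows give no comparison with all promoters, and a match is a string of letters, not a measured site.

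Shown are the 1 window of a domain gene with a match and the 1 window with the stricter match, with the matching letters in capitals. The first lies before a start of Gnas, which encodes the stimulatory G protein alpha subunit, at chr2:174284070-174284319 of GRCm38.p6 on the plus strand. Its match is on the minus strand and begins 152 bases before the start. The second is that of Rian, a maternally expressed non-coding RNA of the Dlk1 and Meg3 domain, at chr12:109603695-109603994 of GRCm38.p6 on the plus strand, with a match that begins 7 bases after the start.
Gnas: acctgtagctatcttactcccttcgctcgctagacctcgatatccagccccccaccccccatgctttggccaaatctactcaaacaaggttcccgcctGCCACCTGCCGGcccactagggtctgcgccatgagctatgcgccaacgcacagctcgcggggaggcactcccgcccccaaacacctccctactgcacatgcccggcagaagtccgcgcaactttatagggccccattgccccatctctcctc
Rian: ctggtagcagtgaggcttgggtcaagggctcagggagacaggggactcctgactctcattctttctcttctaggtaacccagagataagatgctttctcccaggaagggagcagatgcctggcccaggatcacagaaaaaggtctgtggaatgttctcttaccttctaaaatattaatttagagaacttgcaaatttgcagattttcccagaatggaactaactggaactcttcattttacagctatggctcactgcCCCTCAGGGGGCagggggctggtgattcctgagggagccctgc
The other 3 windows with a match to the first motif belong to Cobl (CCTCCAGCCGGC), Dio3 (GCCGCCTCGAGG, the minus strand match) and Slc22a2 (GCCTGCTCTGGG, likewise). These GRCm38.p6 positions cannot be set beside the mm9 intervals.

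Over all 8 domains, which span 8 Mb, the QSC list held 10.6 intervals per Mb (95% exact Poisson interval 8.49 to 13.1) and the FISC list 11.5 per Mb (9.27 to 14.1). Across the 2574 Mb that the lists span, summed from end to end of their coverage on each chromosome, the densities were 7.54 and 6.81 per Mb. The domains thus held more listed intervals per Mb than the genome in both states. The Poisson intervals cover counting error only, and the difference was not tested. Windows of 1 Mb varied widely: over 2589 of them, the 10th and 90th percentiles were 2 and 14 QSC intervals and 0 and 16 FISC intervals. Stretches of the same length on both sides of each domain held 8.25 QSC and 8.75 FISC intervals per Mb, between the domains and the genome. The single domains differed in this: 3 of 8 held more QSC intervals than either of their own flanks (Peg3, Grb10, Igf2r) and 4 of 8 more FISC intervals (these and H19 and Igf2). In 5 of 8 domains at least 1 flank held more QSC intervals than the domain, and in 3 of 8 more FISC intervals. The domains held 0.438% of the QSC list and 0.525% of the FISC list on 0.311% of that span.

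**Figure D1:**
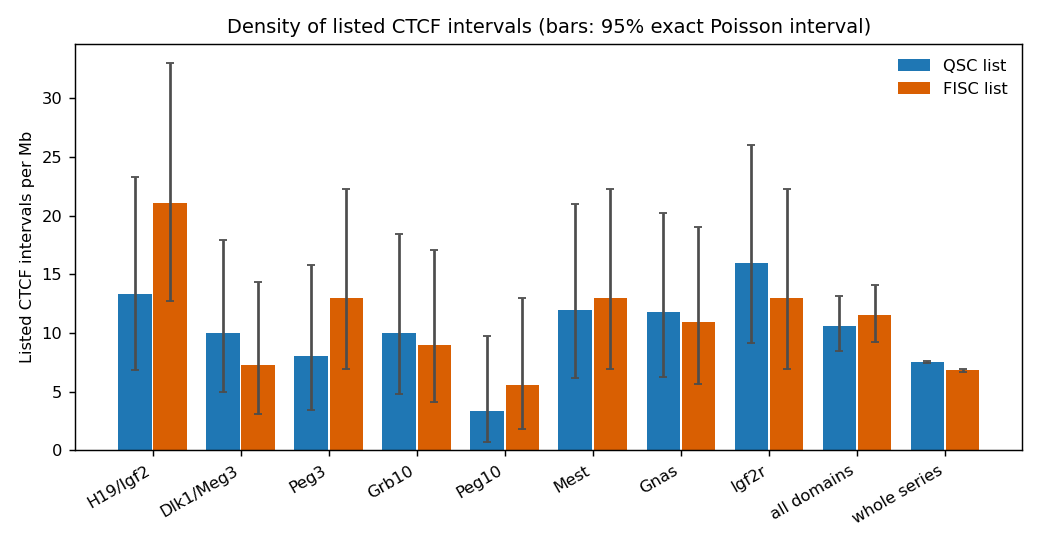
Listed CTCF intervals per Mb (y axis) in each imprinted gene domain, in all 8 domains and in the whole series, for the QSC list (blue) and the FISC list (orange), with 95% exact Poisson intervals. The H19 and Igf2 domain has the tallest FISC bar at 21.1 per Mb and the Peg10 domain the lowest QSC bar at 3.33 per Mb.

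About as many intervals were shared here as elsewhere. In QSC, 34 of 85 members (40.0%, 95% Wilson interval 30.2 to 50.6) had a FISC partner, against 37.8% of the whole list. In FISC, 34 of 92 members (37.0%, 27.8 to 47.2) had a QSC partner, against 41.8%. Both intervals hold the value of the whole list. Merging both lists gave 143 sites, of which 34 (23.8%, 17.5 to 31.4) were in both states, 51 in QSC and not in FISC, and 58 in FISC and not in QSC. In the whole series 24.7% of 29580 merged sites were in both. Where a shared site needs midpoints within 100 bp, the shares fell to 29.4% of QSC and 27.2% of FISC members, against 28.5% and 31.5% of the whole lists by the same rule.

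**Figure D2:**
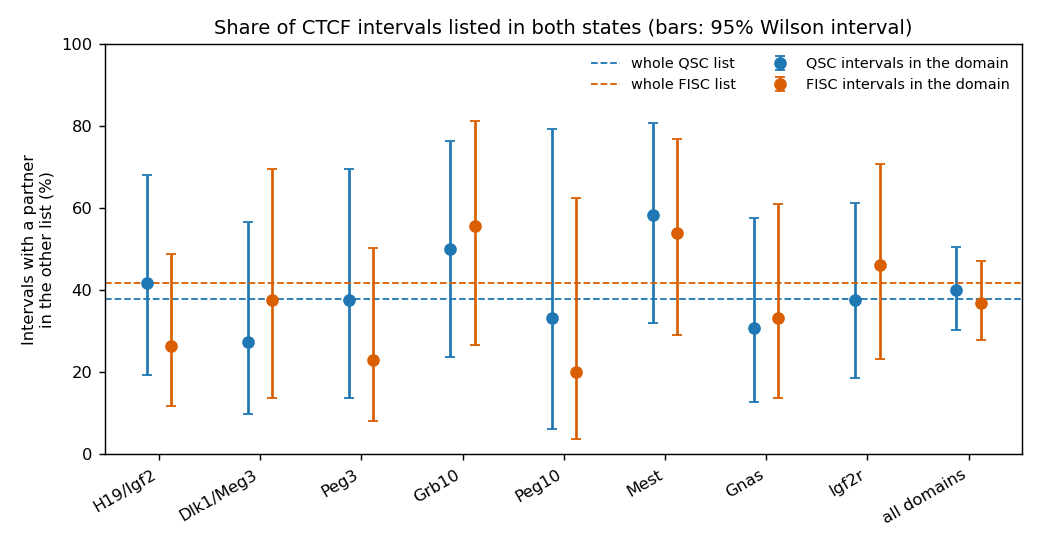
Percentage of the CTCF intervals of each domain that overlap an interval of the other list (y axis), with 95% Wilson intervals, for QSC (blue) and FISC (orange); dashed lines give the whole lists, 37.8% and 41.8%. The intervals of all 8 domains include the dashed line of their own list.

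The domains differed in the balance of both lists. Together they held 1.08 FISC intervals per QSC interval (95% interval from a binomial share 0.807 to 1.45), against 0.903 in the whole series. In the stretches beside the domains the ratio was 1.06 (0.837 to 1.34), close to that of the domains. FISC intervals were the more numerous in 4 domains (H19 and Igf2, Peg3, Peg10, Mest) and QSC intervals in the other 4. In single domains these directions rest on few intervals. Of the settings that gave a ratio, only H19 and Igf2 kept its direction under each, while the other 7 domains turned or came to equal counts under at least 1. Mest turned with ranges narrowed (0.667) or widened (0.882) by 0.2 Mb and among the wider 50% of each list (0.556). Gnas turned with narrowed ranges (1.17), Grb10 with widened ones (1.20), and Igf2r (1.12) and Peg3 among the wider 50%. With lists cut to equal size the counts were equal at Dlk1 and Meg3, Gnas and Igf2r, and with narrowed ranges at Dlk1 and Meg3 and Peg10. In the wider 50%, counts were equal at Grb10, and Peg10 held 1 QSC and 0 FISC intervals. The ratio for all domains became 1 when the H19 and Igf2 domain was left out, and 0.860 among the wider 50% of each list. With 8 to 31 intervals in a domain, the interval of the ratio included 1 in every domain. All intervals of these ratios count a shared site once in each list, as if both counts were independent.

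The H19 and Igf2 domain (chr7, 149.3 to 150.2 Mb) held the most intervals, 12 in QSC and 19 in FISC. H19 is a maternally expressed non-coding RNA abundant in muscle, and Igf2 is the paternally expressed growth factor beside it. In the gene table the order along this stretch is Lsp1, Tnnt3, Mrpl23, H19, Igf2, Ins2, Th and Ascl2. The FISC density was 21.1 per Mb (12.7 to 33.0) and the QSC density 13.3 (6.89 to 23.3). There were 1.58 FISC intervals per QSC interval (0.780 to 3.21). In the inner 0.5 Mb, 0.2 Mb from either edge, the lists held 14 FISC and 4 QSC intervals, a ratio of 3.5 (1.21 to 10.1). In each list 3 of these intervals were shared, and the interval of the ratio treats them as independent counts. This inner range is the single one of the 8 narrowed ranges whose interval excludes 1, and it is given here because it stood out among them. The other 7 had ratios from 0.600 (Grb10) to 1.20 (Peg3), and all 8 together 1.08. The flanks of this domain held 10 and 13 QSC and 13 and 15 FISC intervals.

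Shared sites of this domain numbered 5. They were 41.7% of its QSC (Wilson interval 19.3 to 68.0) and 26.3% of its FISC intervals (11.8 to 48.8). The Wilson intervals include the 37.8% and 41.8% of the whole lists. The first shared site was listed at chr7:149470390-149470721 in QSC (332 bp) and at chr7:149470578-149470951 in FISC (374 bp), with midpoints 209 bp apart. Next came QSC chr7:149621454-149621726 (273 bp), which lies wholly within a FISC interval of 355 bp, and QSC chr7:149718870-149719206 (337 bp), within a FISC interval of 457 bp. The fourth, QSC chr7:149735917-149736337 (421 bp), met a FISC interval of 482 bp. The last, at chr7:150080645-150081077 in QSC (433 bp), met one of 453 bp. In all 5 pairs the FISC interval was the wider.

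Beyond the fourth shared site the QSC list had no interval for 170 kb, from 149736338 to 149906573. Inside that stretch the FISC list had 4: chr7:149767560-149768039 (480 bp), chr7:149796504-149796857 (354 bp), chr7:149861552-149861814 (263 bp) and chr7:149900558-149900977 (420 bp). The widest FISC-only interval of the domain, 571 bp at chr7:150105073-150105643, lay 24.0 kb from the nearest QSC interval. The FISC-only interval farthest from the QSC list was chr7:149985332-149985682, at 62.4 kb. FISC-only intervals numbered 14, with widths from 263 to 571 bp and a median of 383 bp. QSC-only intervals numbered 7, with a median of 287 bp. Of these, 3 lay before the first shared site and 1 directly after it, and chr7:149394258-149394612 (355 bp) was the farthest from any FISC interval, at 69.5 kb. The QSC-only interval chr7:149470990-149471253 was separated from the FISC interval of the first shared site by 38 bp. Together with that site, a FISC-only interval of 337 bp and another QSC-only interval of 273 bp it made a chain of 4 sites. This chain spanned 7.13 kb and had the most sites of any chain of sites under 10 kb apart in the 8 domains. The chain with the largest span, 17.4 kb, had 3 sites and lay in the Peg3 domain.

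Igf2r encodes the receptor that carries IGF2 to the lysosome, and is expressed from the maternal copy while the antisense RNA Airn is made from the paternal one. Its domain (chr17, 12.4 to 13.4 Mb) held 16 QSC and 13 FISC intervals, the highest QSC density of the 8 domains, 16.0 per Mb (9.15 to 26.0). The flanks held 5 and 8 QSC and 6 and 7 FISC intervals. In the gene table Plg, Slc22a3 and Slc22a2, the latter pair encoding organic cation transporters, come before Igf2r, and Airn and Mas1 after it.

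Of the 6 shared sites in this domain, 2 lay side by side. They were listed in QSC at chr17:12725052-12725407 (356 bp) and chr17:12727656-12728044 (389 bp), 2236 bp apart as merged sites. Their FISC intervals measured 456 and 407 bp. The midpoints of the second pair lay 3 bp apart, the closest of the 34 shared sites. The pair with midpoints farthest apart was also here, 348 bp, between QSC chr17:13185345-13185720 (376 bp) and FISC chr17:13184905-13185464 (560 bp), with 120 bp of overlap. The other 3 were QSC chr17:12403653-12404044 (392 bp, FISC 383 bp), chr17:12564833-12565336 (504 bp, FISC 475 bp) and chr17:13073116-13073495 (380 bp, FISC 486 bp).

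QSC-only intervals of the Igf2r domain numbered 10, with a median of 271 bp against 384.5 bp for its shared QSC intervals. Over the whole QSC list the QSC-only median was 291 bp. None of the 10 lay within 10 kb of a FISC interval, against 16.8% of all QSC-only intervals that did. The farthest, chr17:13366965-13367247 (283 bp), was 163 kb away. Between 12853780 and 13003300 the FISC list had no interval for 149.5 kb, while the QSC list had 2, of 253 and 272 bp. FISC-only intervals numbered 7, with a median width of 339 bp. The closest to a QSC interval was chr17:12560227-12560651 (425 bp) at 4181 bp, and the farthest was chr17:12648100-12648407 (308 bp) at 44.8 kb.

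Grb10, an adaptor protein that restrains insulin and IGF receptor signalling, sits between Ddc and Cobl in the gene table. Its domain (chr11, 11.4 to 12.4 Mb) held more intervals than its flanks. It held 10 QSC and 9 FISC intervals, while the 1 Mb before it held 2 of each and the 1 Mb after it 3 QSC and 1 FISC intervals, none of them shared. Within the domain 5 of 10 QSC intervals (95% Wilson interval of the share 23.7% to 76.3%) and 5 of 9 FISC intervals (55.6%, 26.7 to 81.1) were shared. The intervals of these shares include the 37.8% and 41.8% of the whole lists.

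The 5 shared sites of the Grb10 domain began 289 to 526 kb into the range. QSC widths were 541, 414, 273, 477 and 473 bp along the chromosome, from chr11:11688519-11689059 to chr11:11925719-11926191. The FISC intervals measured 581, 427, 455, 469 and 589 bp. The FISC interval was the wider in 4 of the 5. The third pair had the largest width ratio of the 34 in favour of FISC, 1.67. Along the chromosome, QSC-only intervals lay before, among and after the shared sites, while the FISC-only intervals came last. A pair of QSC-only intervals (336 and 321 bp) came before the first shared site, and 1 of 295 bp fell between the fourth and the fifth. After the last shared site no interval of either list was found for 181 kb. QSC-only chr11:12107264-12107573 (310 bp) and chr11:12149422-12149704 (283 bp) came next, and then all 4 FISC-only intervals, from chr11:12191412-12191800 (389 bp) to chr11:12273388-12273822 (435 bp). The last of these was 124 kb from the nearest QSC interval. No site of this domain had a neighbouring site within 10 kb.

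In the Dlk1 and Meg3 domain (chr12, 110.2 to 111.3 Mb) the lists held 11 QSC and 8 FISC intervals (0.727 FISC per QSC interval, 0.301 to 1.76). With ranges narrowed by 0.2 Mb they held 7 each, and with lists of equal size the ratio was also 1. The flank before the range was denser than the domain, with 16 QSC and 22 FISC intervals, and the flank after it held 10 and 11. Dlk1 is paternally expressed, and Meg3, Rian and Mirg are non-coding RNAs of the maternal copy. The table orders the genes as Wdr25, Begain, Dlk1, Meg3, Rtl1, Rian, Mirg and Dio3. Rtl1 is a retrotransposon-derived gene, and Dio3 inactivates thyroid hormone. Among intervals in the wider 50% of their own list the domain held 7 QSC and 2 FISC intervals, a ratio of 0.286 (0.0675 to 1.21).

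Its 3 shared sites began 432, 476 and 580 kb into the range. They were QSC chr12:110632135-110632527 (393 bp, FISC 386 bp), chr12:110676104-110676458 (355 bp, FISC 458 bp) and chr12:110780203-110780571 (369 bp, FISC 304 bp). Each had a FISC-only interval as its neighbour. These neighbours lay 6863 bp, 1142 bp and 557 bp from the merged shared site and measured 366, 325 and 246 bp. No QSC-only interval of the domain lay within 10 kb of a FISC interval, against 16.8% of all QSC-only intervals that did. The 8 QSC-only intervals were spread over the range with widths from 249 to 376 bp. The widest of them, chr12:110316218-110316593, stood alone, 174 kb from the nearest FISC interval, with no interval of either list for the next 315 kb. On the far side of the third shared site the FISC list was empty for 287 kb, from 110781375 to 111068521, where QSC had 2 intervals of 256 and 249 bp.

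Mest, a paternally expressed gene of mesodermal tissues that encodes a hydrolase-like protein, lies between Cpa4 and Copg2 in the gene table. Its domain (chr6, 30.2 to 31.2 Mb) had 12 QSC and 13 FISC intervals and the largest number of shared sites, 7. These were 58.3% of its QSC (32.0 to 80.7) and 53.8% of its FISC intervals (29.1 to 76.8), again with the whole lists' 37.8% and 41.8% inside. The flank before the range held 13 intervals of each list with 5 shared, and the flank after it 11 QSC and 4 FISC intervals with 3 shared.

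Along the domain, the QSC intervals of the shared sites measured 383, 448, 342, 385, 349, 392 and 400 bp, and the FISC intervals 334, 623, 442, 287, 409, 298 and 369 bp. The FISC interval was the wider in 3 of the 7. The 623 bp interval, chr6:30409704-30410326, was the widest FISC interval in the 8 domains and held the whole QSC interval chr6:30409878-30410325. The fifth and sixth shared sites, chr6:30982930-30983278 and chr6:30988405-30988796 in QSC, were 4995 bp apart as merged sites. At chr6:30353375-30353768 in FISC (394 bp) and chr6:30353783-30354087 in QSC (305 bp) the intervals missed each other by 14 bp, the smallest gap between unshared intervals of both lists in the domains. State-only intervals were grouped by list in part of the range only. QSC-only intervals of 381, 359 and 274 bp lay between the third and the fourth shared site. After the last shared site lay 4 FISC-only intervals of 247 to 345 bp. Elsewhere both classes were mixed, as at the intervals that missed each other by 14 bp. Between the fourth and the fifth shared site lay a QSC-only interval of 245 bp and a FISC-only interval of 374 bp. The FISC-only interval farthest from the QSC list was chr6:31126320-31126575 (256 bp), at 80.0 kb, and the QSC-only one farthest from the FISC list was chr6:30570573-30570931, at 84.8 kb. Between 30687339 and 30901636, which is 214 kb, neither list had an interval.

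The Gnas domain (chr2, 173.6 to 174.7 Mb) held 13 QSC and 12 FISC intervals, and its shared sites all fell towards 1 end. Gnas makes several imprinted transcripts, and Gnasas1, known also as Nespas, is the antisense RNA that precedes it in the gene table, with Edn3 after it. The first 898 kb of the range held no shared site. The 4 shared sites were QSC chr2:174497915-174498352 (438 bp, FISC 353 bp), chr2:174677296-174677818 (523 bp, FISC 452 bp), chr2:174683639-174684357 (719 bp, FISC 282 bp) and chr2:174685094-174685475 (382 bp, FISC 330 bp). The QSC interval was the wider in all 4, opposite to the H19 and Igf2 domain. The third, at 719 bp, was the widest QSC interval in the domains and its FISC partner had 0.392 times its width. The last 3 shared sites formed a cluster of 8.21 kb. In this domain the flanks were unequal: 18 QSC and 22 FISC intervals lay in the 1.1 Mb before it, 11 of each shared, and 1 QSC and 3 FISC intervals in the 1.1 Mb after it.

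Of the 9 QSC-only and 8 FISC-only intervals of the Gnas domain, 2 pairs of unlike class lay close. QSC chr2:174105127-174105409 (283 bp) and FISC chr2:174109517-174109803 (287 bp) were 4107 bp apart, and FISC chr2:174137665-174138015 (351 bp) and QSC chr2:174143111-174143494 (384 bp) 5095 bp. Beside the first shared site lay 2 FISC-only intervals of 386 and 544 bp, 1135 bp from it and then 1112 bp from each other. The QSC list had no interval for 259 kb from 174239164 to 174497914, where FISC had 1, chr2:174318409-174318697 (289 bp). QSC-only chr2:173660039-173660323 (285 bp) was 241 kb from the nearest FISC interval, the farthest of the QSC-only members. The FISC-only interval farthest from QSC was chr2:173935546-173935937 (392 bp), at 87.1 kb.

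Peg3, a paternally expressed zinc finger protein also called Pw1, lies between Zim1 and Usp29 in the gene table, with the antisense RNA Peg3os. Its domain (chr7, 6.2 to 7.2 Mb) held 8 QSC and 13 FISC intervals, 1.62 FISC per QSC interval (0.691 to 3.82). The flanks held 5 QSC intervals each, and 6 and 3 FISC intervals. Among the wider 50% of each list the balance turned, with 5 QSC and 3 FISC intervals (0.600, 0.159 to 2.27). FISC-only intervals of this domain numbered 10, with widths from 245 to 434 bp. The 3 shared sites were QSC chr7:6311942-6312341 (400 bp, FISC 564 bp), chr7:6387302-6387660 (359 bp, FISC 270 bp) and chr7:6889847-6890192 (346 bp, FISC 281 bp). The second and the third had FISC-only neighbours, 3875 bp and 3340 bp from the merged site. After the third shared site QSC had no interval to the end of the range, 310 kb, while FISC had 3, of which chr7:7073488-7073854 (367 bp) was 157 kb from the nearest QSC interval. Near the middle, FISC chr7:6680184-6680525 (342 bp) and QSC chr7:6688060-6688415 (356 bp) lay 7534 bp apart, and QSC chr7:6703850-6704099 (250 bp) followed. Between the second shared site and 6612388 the FISC list had no interval for 225 kb, where QSC had 2, of 266 and 385 bp.

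The Peg10 domain (chr6, 4.3 to 5.2 Mb) was the sparsest, with 3 QSC intervals (3.33 per Mb, 0.687 to 9.74) and 5 FISC intervals (5.56 per Mb, 1.80 to 13.0). The flank after it was denser, with 9 QSC and 10 FISC intervals, and the flank before it held 3 and 2. Peg10 is a retrotransposon-derived gene needed in the placenta, and in the gene table it follows Casd1 and Sgce and precedes Ppp1r9a and Asb4. The single shared site was listed at chr6:4495502-4495958 in QSC (457 bp) and chr6:4495729-4496062 in FISC (334 bp). A FISC-only interval of 305 bp lay 494 bp before the QSC interval of that site. At the centre of the range, FISC chr6:4697031-4697275 (245 bp) and QSC chr6:4745477-4745743 (267 bp) were 48.2 kb apart. The FISC-only interval chr6:5060378-5060742 (365 bp) was 272 kb from any QSC interval, the farthest of all state-only members, and no interval of either list lay in the 315 kb before it.

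**Figure D3:**
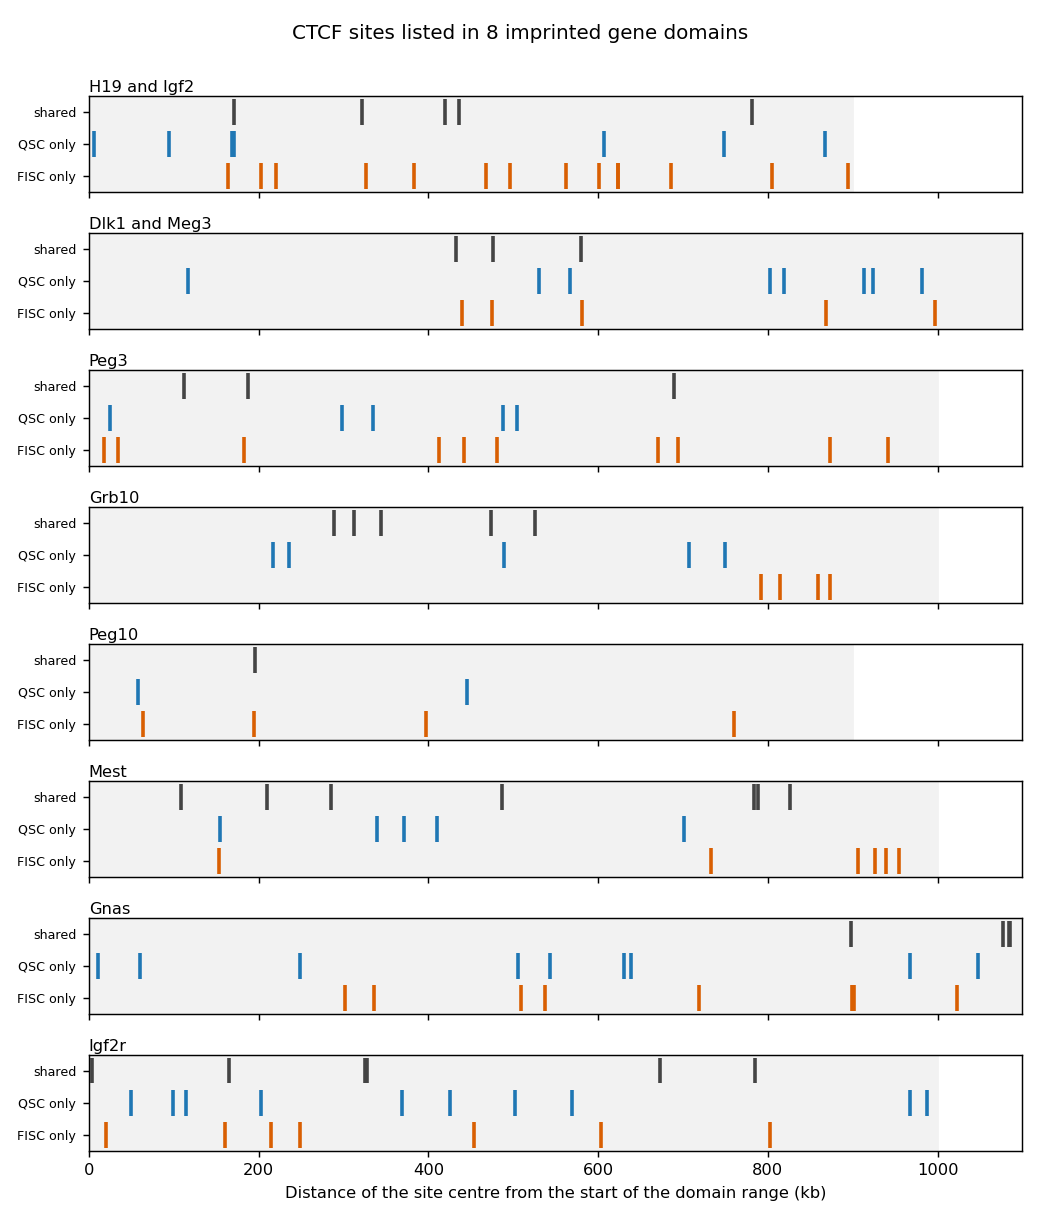
Positions of the 143 merged CTCF sites along each domain, as the distance of the site centre from the start of the range in kb (x axis), in 3 rows for sites in both lists (grey), in QSC only (blue) and in FISC only (orange); the shaded area is the range. In the Grb10 panel the 5 shared sites precede all 4 FISC-only sites, and in the Gnas panel the 4 shared sites lie towards the right end.

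Shared intervals had a larger median width than state-only ones in both lists, as in the whole series. In QSC this held in 8 of 8 domains and in FISC in 6 of 8. The exceptions in FISC were Peg3 (shared 281 bp, FISC-only 346.5 bp) and Gnas (341.5 and 368.5 bp). In QSC the median width was 390.5 bp for the 34 shared members (95% binomial order-statistic interval 369 to 421) and 283 bp for the 51 QSC-only members (272 to 305). Over the whole QSC list these medians were 359 and 291 bp. In FISC they were 418 bp (355 to 457) for shared members and 351 bp (332 to 368) for the 58 FISC-only members, against 412 and 344 bp in the whole list. Shared QSC members thus had a median above the 359 bp of all shared QSC intervals, which lies outside the counting interval, while the FISC medians were close to those of their list. This describes 34 intervals and was not tested. Among QSC members narrower than the list median of 310 bp, 2 of 35 were shared (5.71%, 95% Wilson interval 1.58 to 18.6), against 22.5% in the whole list. Both of these were 273 bp wide, 1 in the H19 and Igf2 and 1 in the Grb10 domain. Of the 50 wider QSC members 32 were shared (64.0%, 50.1 to 75.9), against 52.8%. In FISC, 12 of 49 narrower members (24.5%) and 22 of 43 wider members (51.2%) were shared, against 27.7% and 55.8%.

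**Figure D4:**
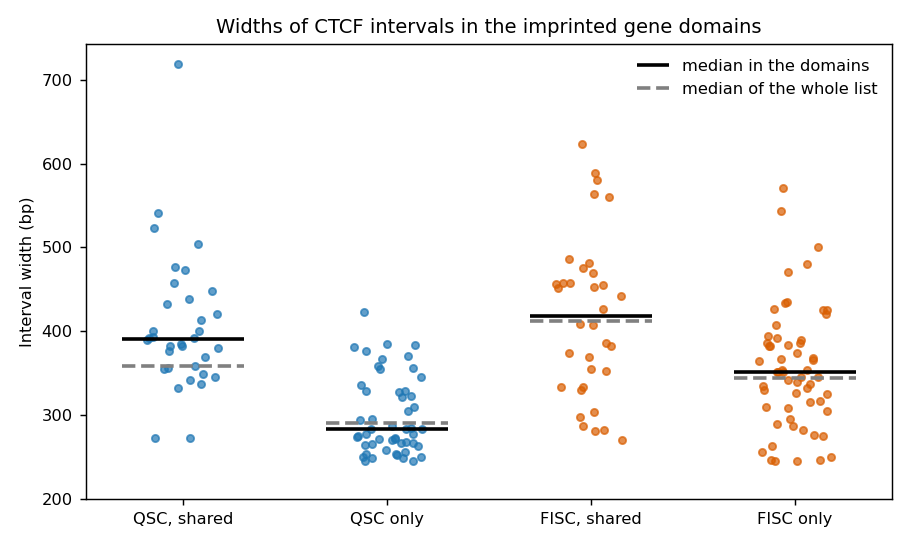
Width in bp (y axis) of each CTCF interval in the 8 domains, by list and class; black lines are medians of the domains and dashed lines medians of the whole lists. The shared QSC median, 390.5 bp, lies above the dashed line at 359 bp, and the QSC-only median, 283 bp, lies below all 3 other medians.

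At the 34 shared sites a single QSC interval met a single FISC interval. Their midpoints lay a median of 60.75 bp apart (40.5 to 97.5), against 54 bp over the 7280 such pairs of the whole series, and 25 of 34 (73.5%, 56.9 to 85.4) were within 100 bp, against 75.8% of all pairs. In 18 of 34 pairs FISC had the wider interval (52.9%, 95% Wilson interval 36.7 to 68.5), against 63.6% of all pairs. The median log2 ratio of FISC to QSC width was 0.05 (-0.20 to 0.32), and 0.16 over all pairs. Neither value sets the domains apart from the series. Domains did not share 1 direction: FISC was the wider in 5 of 5 pairs at H19 and Igf2 and in 0 of 4 at Gnas, with 4 of 5 at Grb10, 4 of 6 at Igf2r, 3 of 7 at Mest, 1 of 3 at Dlk1 and Meg3, 1 of 3 at Peg3 and 0 of 1 at Peg10.

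**Figure D5:**
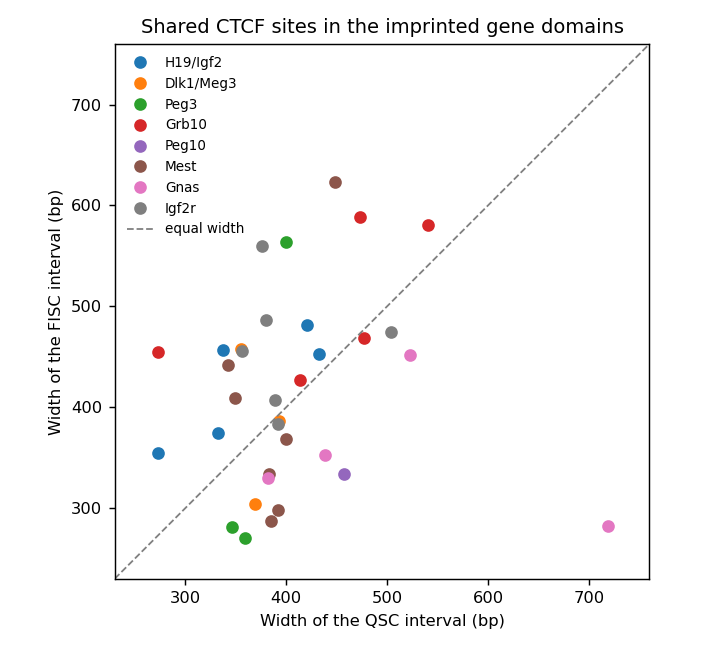
Width of the FISC interval (y axis, bp) against width of the QSC interval (x axis, bp) at each of the 34 shared sites, coloured by domain, with a dashed line at equal width. The 5 points of H19 and Igf2 lie above the line, and the 4 of Gnas lie below it, 1 of them with a QSC width of 719 bp and a FISC width of 282 bp.

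Near misses were about as frequent here as in the whole lists. A neighbour from the opposite list lay within 500 bp of 2 of 51 QSC-only members (3.92%), against 2.19% of all QSC-only intervals, and of 2 of 58 FISC-only members (3.45%), against 2.63%. Within 10 kb there was one for 9 of 51 QSC-only members (17.6%, 95% Wilson interval 9.57 to 30.3), against 16.8% in the whole list, and for 19 of 58 FISC-only members (32.8%, 22.1 to 45.6), against 26.8%. The median distance to the other list was 45.4 kb for QSC-only members (30.2 to 53.5) and 27.0 kb for FISC-only members (15.4 to 44.2), against 60.6 and 27.0 kb in the whole lists. The QSC-only value of the whole list thus lies above the counting interval of the members, a difference that was not tested. At Dlk1 and Meg3, Grb10 and Igf2r, 0 of 8, 0 of 5 and 0 of 10 QSC-only intervals had a FISC interval within 10 kb. The counts were 3 of 7 at H19 and Igf2, 2 of 5 at Peg3 and 1 of 2 at Peg10. Mest had 1 of 5 and Gnas 2 of 9. In every domain the Wilson interval of this share included the 16.8% of the whole list. Of the 143 sites, 49 (34.3%) stood in 22 chains of sites under 10 kb apart, against 34.6% of all sites in the series. A shared site belonged to 13 of these 22 chains, against 2471 of 4342 chains in the series. A chain of 3 shared sites lay in the Gnas domain, and pairs of shared sites lay in the Mest and Igf2r domains.

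The ranges have sharp edges, which fall near some intervals. The members nearest to an edge were the first shared site of the Igf2r domain, with its FISC midpoint 3.77 kb inside, and the last FISC interval of H19 and Igf2, 5.84 kb inside. The nearest interval left out was a QSC interval 3.08 kb before the Gnas range, at chr2:173596779-173597068, followed by 1 of QSC 6.71 kb after the Mest range.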

How the data were processed

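CTCF ChIP-seq of 2 states was analysed from the 2 lists of intervals (chromosome, start, end; no scores) that the authors deposited. Per the submitters' processing notes the build is mm9, and Bowtie2 2.2.3, MACS2, HOMER and Picard are named without roles. How a state's libraries entered its list, and the calling threshold, were not stated. Members, ranges and gene lists were chosen with earlier results of these data known.

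Python 3.11.15 with scipy 1.17.1 and numpy 2.4.6 gave overlaps, merged sites, distances and medians. Bedtools 2.31.1 gave the same 34 and 34 shared members. The overlap procedure was also run on simulated intervals planted so as to overlap, which checks the code and not the results. Shares carry 95% Wilson, densities exact Poisson and medians binomial order-statistic intervals, all for counting error only. Chains join sites under 10 kb apart. Named genes are the 10 that define the domains and 34 neighbours. Named intervals are the shared sites, the widest and most distant state-only intervals, close pairs and, chosen after their values were seen, intervals beside long empty stretches. Alternatives changed the overlap, the ranges, the lists and the domains.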

Additional observations from a re-analysis of the deposited data

How the results depend on the processing

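With all domains pooled, 26 of 31 values recomputed under another setting stayed within the counting interval of the reported value, and 5 moved. Some of those that stayed could tell nothing. Counting every interval that touched a range, and not only those with their midpoint inside, changed no value. Lists of equal size left the FISC density as it was, because only the longer QSC list was cut. With midpoints within 100 bp the shared part was 29.4% of QSC and 27.2% of FISC members. The wider 50% of each list was used in place of a stricter threshold, though nothing in the lists shows that width follows peak strength. Under this setting a partner also had to be in the wider 50% of its own list. The FISC share was then 48.8%, while the QSC share, 42.0%, stayed within its interval. Shares of the whole lists with partners so limited were not computed. With partners of any width, 64.0% of the same QSC and 51.2% of the same FISC members were shared, both outside the intervals of the reported shares. The densities were 6.25 QSC and 5.38 FISC intervals per Mb, as about 50% of each list is left by construction. The cause of the other changes was not tested. Leaving out each domain in turn moved none of 56 values beyond its interval. The QSC share was then between 37.0% and 41.9%, the FISC share between 34.2% and 39.7%, and the FISC to QSC ratio between 1 and 1.14. Densities were between 9.86 and 11.5 QSC and between 10.3 and 12.3 FISC intervals per Mb, and median widths between 329 and 342 bp in QSC and 354 and 374 bp in FISC. For single domains 151 of 166 values stayed within their wide intervals, among them again all values unchanged by counting every interval that touched a range. A threshold by score could not be made stricter without scores. No paired analysis was possible because the 2 libraries of a state share a single list, and for the same reason no replicate was left out. The unknown depth limits every statement on intervals found in 1 list.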
